A study of Arabidopsis thaliana with 30 samples.

Results

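Expansins are a superfamily of small secreted proteins of the plant cell wall, and 35 Arabidopsis thaliana loci were taken as its members by locus code. They comprise the alpha-expansins (EXPA), the beta-expansins (EXPB) and the expansin-like families A and B (EXLA and EXLB). Of the 35, 34 were among the 32548 genes of the table, and the transcribed pseudogene EXPA19 was not analysed here. Messenger RNA was measured in 30 libraries of seedlings 12 days old, grown on MS medium plates in a day of 16 h light, with 3 libraries for each of 10 genotypes. The 9 mutants lack subunits of complexes built around the histone acetyltransferase GCN5. They are the double mutants ada2aspc and spcing1 and the single mutants ada2b, gcn5, ada2a, eaf6, ing1, sdrl and spc, and they are set against the wild type Col-0. The labels give each mutant as homozygous (-/-) and name no allele. GCN5 and ADA2B belong to the conserved SAGA-type complex, while ADA2A, SPC, ING1, SDRL and EAF6 belong to a plant-specific complex that shares GCN5. The last 5 single mutants are called the plant-specific-complex single mutants below.

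Expansins loosen the wall at acid pH without cutting its polymers, and let it extend under turgor. Alpha-expansins act on the cellulose and xyloglucan network of growing cells, and individual members are known from expanding leaves and hypocotyls, root hairs or lateral roots. Beta-expansins form the second classical family. The expansin-like proteins resemble both families in fold, and their wall-loosening activity has not been established to the same degree. Plasma membrane proton pumps acidify the wall, and SAUR proteins of the SAUR19 group keep those pumps active.

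Each gene has a normalised signal, and the signal of a library summed to between 30914000 and 41548748. These totals moved with genotype: the ada2b and gcn5 libraries reached at most 33352943, and every other library had at least 36321329. Nothing in the labels says whether the 3 libraries of a genotype were grown apart, so the spread that p-values measure may be technical. Means carry their SD (n = 3), and log2 fold changes carry their SE. The mutated transcript was at 49.2% of Col-0 in gcn5 and 72.3% in ada2b. It was at 2.5% for ADA2A in ada2a, 22.5% for ING1 in ing1 and 14.3% for EAF6 in eaf6. SPC and SDRL were not checked, and reads outside a disrupted part of a gene check nothing. Some features of the libraries move with genotype and stand beside the results. The summed level of 6 touch and wounding genes lay between 20463 and 67286 in the 7 mutants other than ada2b and gcn5, between 5878 and 11681 in ada2b and between 2500 and 3530 in gcn5, compared with 1775 to 2017 in Col-0. All 9 green shoot markers fell in ada2b, gcn5 and eaf6. The morning clock genes CCA1, LHY and PRR9 fell in all 9 mutants.

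In Col-0 the family was led by 8 alpha-expansins. Per kb of exon, EXPA1 had the highest level, at 8040 ± 440, followed by EXPA8 at 5829 ± 696. EXPA3 (2830 ± 232) and EXPA11 (2794 ± 124) did not differ beyond their spread, and EXPA6, EXPA4, EXPA10 and EXPA5 lay between 1379 and 2327. EXPB3 led the beta-expansins at 1058 ± 46.0 per kb. EXLB1 was at 502 ± 62.2 per kb and EXLA1, the highest of its family, at 299 ± 27.6 per kb. Of the 34 members, 23 passed the minimum of 10 in at least 3 libraries: 16 EXPA, 3 EXPB, 3 EXLA and the 1 EXLB. EXPA22, EXPA24, EXPA25, EXPA26, EXPB4 and EXPB5 were listed at 0 in every library, to 3 decimals. EXPA2, EXPA12, EXPA20, EXPA21 and EXPA23 stayed low, with highest values of 14.2, 9.37, 5.49, 7.07 and 3.03, and were not tested. The coding sequences of EXPA22 and EXPA26 are 97.7% identical and those of EXPA23 and EXPA25 97.1%, so the values of these genes are uncertain where reads match both copies.

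**Figure D1:**
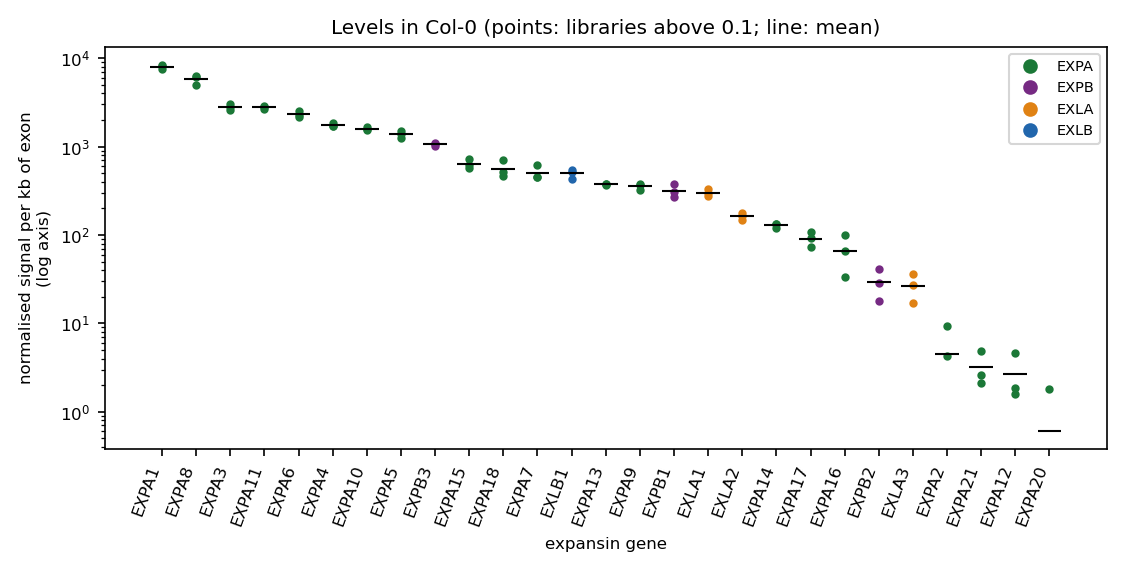
Normalised signal per kb of exon in Col-0 (log axis) for each expansin gene with a mean above 0, ordered by mean; points are libraries, lines are means of 3 libraries and colours are families. EXPA1 and EXPA8 stand highest, at 8040 and 5829 per kb, and EXLA3 is the lowest of the 23 tested genes.

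Summed over the family, the level per kb was 24083 ± 1811 in ada2b and 30765 ± 942 in gcn5, while Col-0 had 31670 ± 1664. In the other 7 mutants the mean sum lay between 24313 in eaf6 and 25942 in sdrl. The highest genes weigh most in these sums: EXPA1 alone was at 2847 to 3610 per kb in the 7, against 8040 in Col-0. The sums were not rescaled by library totals, which averaged 31460173 in ada2b, 32889855 in gcn5 and 37742537 in Col-0. The EXLA family made up 2.06% of the sum in ada2b and 1.54% in gcn5, compared with 1.55% in Col-0. Its share was 10.7% in eaf6, 11.8% in ada2a, 12.1% in spc, 12.5% in ada2aspc, 13.9% in ing1, 20.6% in spcing1 and 20.8% in sdrl.

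All 23 tested members differed among the 10 genotypes (limma F-test, adjusted p below 0.05), where 86.5% of all 21868 tested genes did. The counts of members that changed against Col-0 were read against the share of all genes called in the same contrast. In ada2b 15 of 23 changed (65.2%, against 51.6% of all genes): 4 rose, where 23.5% of all genes did, and 11 fell, where 28.1% did. In gcn5 13 changed (56.5% against 42.7%), with 8 up and 5 down beside 18.2% and 24.5% of all genes. In ada2a 13 changed (56.5% against 29.7%), 4 up and 9 down beside 15.1% and 14.5%. In spc it was 10 (43.5% against 39.9%), 4 up and 6 down beside 20.3% and 19.7%. For ing1 it was 10 (43.5% against 35.7%), 5 up and 5 down beside 17.5% and 18.2%. The spc and ing1 shares lay nearest to those of all genes. In sdrl 12 changed (52.2% against 35.8%), 4 up and 8 down beside 17.0% and 18.9%. In eaf6 15 changed (65.2% against 51.0%), 9 up and 6 down beside 25.2% and 25.9%. The double mutant ada2aspc had 13 (56.5% against 44.4%), 5 up and 8 down beside 21.7% and 22.8%. In spcing1 19 changed (82.6% against 44.9%), 4 up and 15 down beside 20.9% and 23.9%. The spcing1 count of 19 was 12 without spcing1 replicate 2 or replicate 3 and 11 without Col-0 replicate 1. With median-ratio size factors it was 14, with 4 up and 10 down, below the 16 then called in each of ada2b and eaf6. All tested genes then split into 5003 up and 4666 down in spcing1, 5493 and 5969 in ada2b and 5814 and 5244 in eaf6. The median log2 fold change of the 23 lay between -0.34 in ada2a and 0.22 in eaf6, and that of all tested genes between -0.05 and 0.01. When each library was divided by its total, the median over all genes became 0.274 in ada2b and 0.174 in gcn5. The members then split into 8 up and 10 down in ada2b, 12 and 3 in gcn5, 4 and 14 in ada2a, 4 and 9 in ing1 and 5 and 11 in ada2aspc. Beside them, all tested genes split into 10099 up and 4379 down in ada2b and 7691 and 3520 in gcn5. They split into 2630 and 4906 in ada2a, 3181 and 5167 in ing1 and 3822 and 6249 in ada2aspc. The median over all genes became -0.115 in ada2a and -0.104 in ada2aspc.

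**Figure D2:**
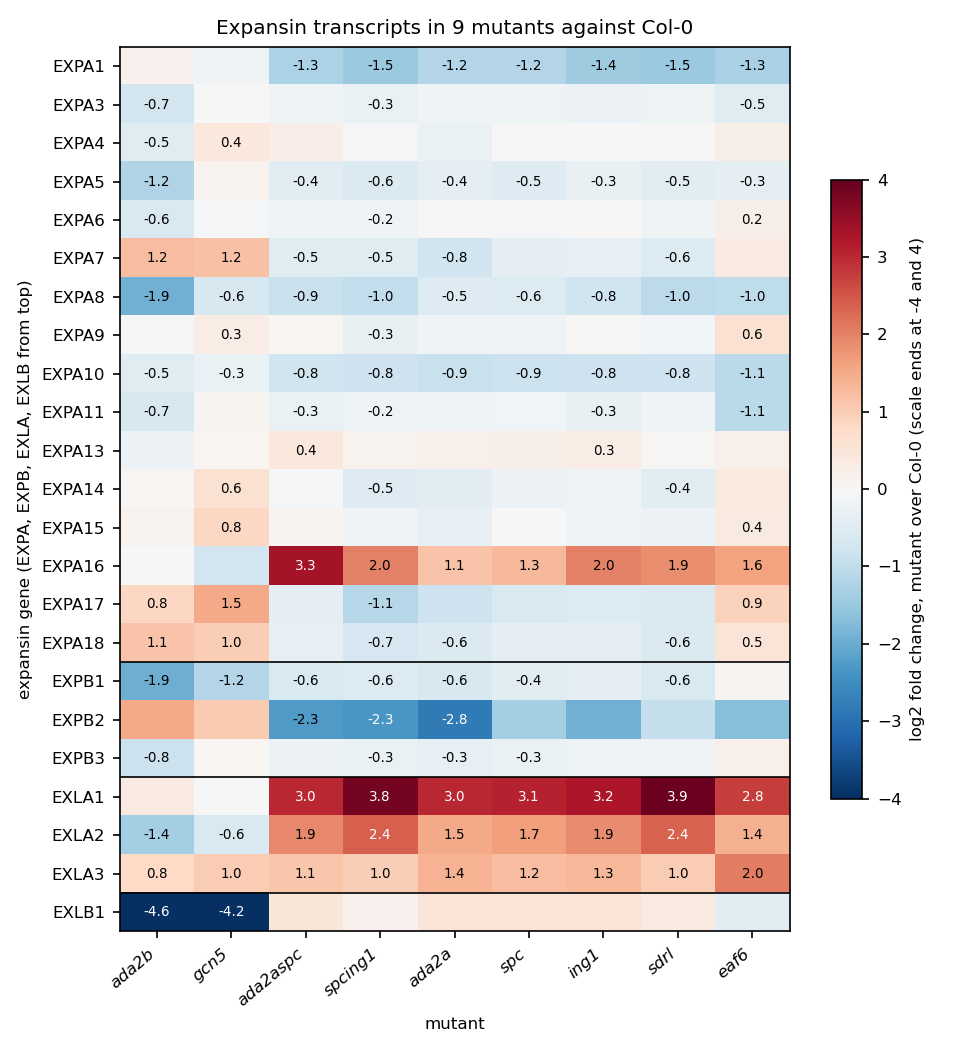
Log2 fold change of each of the 23 tested expansin genes (rows, by family) in each mutant over Col-0 (columns); numbers are printed where the adjusted p is below 0.05, and colours end at -4 and 4. The EXLA rows are red in the 7 mutants other than ada2b and gcn5, and the EXLA3 row is also red in ada2b and gcn5. The EXLB1 row is dark blue in ada2b and gcn5, at -4.59 and -4.22.

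EXLB1, the only EXLB gene of Arabidopsis, fell in ada2b and in gcn5. EXLB1 (AT4G17030, TAIR10.1 chromosome 4, 9581562 to 9583290, minus strand) had values of 9.09, 42.1 and 27.8 in ada2b and of 40.4, 29.9 and 19.9 in gcn5, compared with 584, 482 and 615 in Col-0. It was at 796, 797 and 820 in ada2a, 613, 914 and 878 in spc. The ing1 libraries had 864, 766 and 759. The sdrl libraries had 767, 690 and 681. In eaf6 the values were 432, 448 and 366. In the double mutants they were 834, 764 and 738 in ada2aspc and 677, 524 and 714 in spcing1. Every ada2b and gcn5 library lay below every library of the other genotypes, and ada2b and gcn5 overlapped. The log2 fold change was -4.59 ± 0.29 in ada2b (limma, adjusted p = 3.72e-14) and -4.22 ± 0.29 in gcn5 (adjusted p = 1.02e-12), which is 4.70% and 5.37% of the Col-0 mean. It was 0.53 ± 0.29 in ada2a (adjusted p = 0.172) and -0.43 ± 0.29 in eaf6 (adjusted p = 0.219). When only the 2 groups compared were fitted, EXLB1 passed as higher in ada2a (adjusted p = 0.00165), spc (0.0132), ing1 (0.00166), sdrl (0.023) and ada2aspc (0.00283), and as lower in eaf6 (0.00868). Whole seedlings cannot tell fewer cells of a type from less RNA per cell, and the green shoot markers, which summed to 427578 to 554602 in ada2b and 659714 to 674569 in gcn5, while Col-0 had 1541334 to 1600663, fell in the same mutants. Their part in the result was not tested.

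The EXLA genes showed a different split: EXLA1 and EXLA2 rose in the 7 mutants other than ada2b and gcn5. EXLA1 (AT3G45970, TAIR10.1 chromosome 3, 16896166 to 16897308, plus strand) was at 368, 406 and 450 in ada2b and 365, 352 and 268 in gcn5, while Col-0 had 349, 316 and 291. It was at 2342, 2383 and 3098 in ada2a, 3050, 2557 and 2565 in spc and, in ing1, 3570, 2725 and 2812. It was at 4911, 4714 and 4791 in sdrl and 2086, 2130 and 2360 in eaf6. In the double mutants it was at 2418, 3707 and 1930 in ada2aspc and 3833, 5060 and 4914 in spcing1. No library of these 7 mutants overlapped Col-0. The log2 fold change ran from 2.78 ± 0.16 in eaf6 to 3.91 ± 0.16 in sdrl (adjusted p = 1.92e-14 and 8.84e-18), which is 6.88-fold and 15.1-fold. It was 0.35 ± 0.16 in ada2b (adjusted p = 0.0625) and 0.03 ± 0.16 in gcn5 (adjusted p = 0.885). The ada2b difference passed with median-ratio size factors (adjusted p = 0.0495), with column totals (adjusted p = 0.000944) and when only the 2 groups were fitted (adjusted p = 0.0395).

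EXLA2 (AT4G38400, TAIR10.1 chromosome 4, 17978422 to 17979740, minus strand) had values of 494 ± 11.7 in eaf6 and up to 984 ± 131 in spcing1, against 185 ± 16.7 in Col-0. Its log2 fold change ran from 1.42 ± 0.21 in eaf6 to 2.40 ± 0.21 in spcing1, and it passed in all 7. In contrast to EXLA1 it fell in ada2b, to 76.3 ± 31.3 (-1.36 ± 0.21, adjusted p = 4.16e-06). It also passed as lower in gcn5 (125 ± 36.3, -0.60 ± 0.21, adjusted p = 0.0231), a call lost without gcn5 replicate 3 (adjusted p = 0.222), Col-0 replicate 1 (0.0797) or Col-0 replicate 2 (0.051), and with column totals (0.103). EXLA3 (AT3G45960), a neighbour of EXLA1 on chromosome 3, rose in all 9 mutants, by 0.79 ± 0.28 in ada2b to 2.05 ± 0.28 in eaf6. It was at 149 ± 19.6 in eaf6, against 36.6 ± 13.3 in Col-0. Without Col-0 replicate 1, the lowest of its group at 23.2, EXLA3 no longer passed in ada2b (adjusted p = 0.165), gcn5 (0.0507), sdrl (0.0673) and spcing1 (0.0646). It also lost its call without ada2b replicate 2 (0.09) and without spcing1 replicate 3 (0.0542). The EXLA1 coding sequence is 86.0% identical to EXLA3 and 84.3% to EXLA2.

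The windows of 300 bases before the annotated start of EXLA1 and EXLA2 are shown because these genes rose together. They share a run of 11 bases, in capitals, found by comparing the 2 windows. The sequences are from RefSeq, TAIR10.1, at chr3:16895866-16896165 (plus strand) for EXLA1 and chr4:17979741-17980040 (minus strand) for EXLA2.
EXLA1: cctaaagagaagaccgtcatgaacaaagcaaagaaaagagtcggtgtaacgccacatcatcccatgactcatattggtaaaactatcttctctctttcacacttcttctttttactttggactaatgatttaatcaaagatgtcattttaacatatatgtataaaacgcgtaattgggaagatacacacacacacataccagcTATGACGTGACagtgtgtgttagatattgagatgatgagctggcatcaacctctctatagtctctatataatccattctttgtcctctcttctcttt
EXLA2: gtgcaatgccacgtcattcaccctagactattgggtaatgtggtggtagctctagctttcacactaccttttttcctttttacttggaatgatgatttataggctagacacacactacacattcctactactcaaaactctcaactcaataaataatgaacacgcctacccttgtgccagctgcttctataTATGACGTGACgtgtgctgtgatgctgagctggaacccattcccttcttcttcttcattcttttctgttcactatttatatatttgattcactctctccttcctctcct
The run TATGACGTGAC begins 97 bases before the start of EXLA1 and 109 before that of EXLA2. On either strand it was in 2 of 27443 promoter windows of this length (0.007%), these 2. This is a description of the windows, since the run was chosen from them. The EXLA2 window overlaps a short annotated coding gene, AT4G38401.

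Touch and wounding genes were also higher in the 7 mutants. Their mean sum was highest in spcing1 (61511) and sdrl (56456) and lowest in eaf6 (29867) among these. EXLA1 was likewise highest in sdrl and spcing1 and lowest in eaf6, while between these ends the order differed. The mean sum of the touch and wounding genes was 30590 in ada2aspc and 48536 in ada2a, where EXLA1 was at 2685 ± 918 and 2608 ± 425. In the direct test of ada2aspc against ada2a, 5 of the 6 touch and wounding genes were lower and 0 of the 3 EXLA genes was called. The mean sum was 37895 in ing1 and 51778 in spc, where EXLA1 was at 3036 ± 464 and 2724 ± 283. In the 3 ada2aspc libraries, where EXLA1 was at 2418, 3707 and 1930, the touch and wounding sum was 27475, 43833 and 20463. Libraries of ada2a and of spcing1 also had the same order for EXLA1 and for this sum. In spc, ing1, sdrl and eaf6 the order of the libraries differed between them. All 6 genes of the touch and wounding list rose in the 8 mutants other than gcn5, and 5 of the 6 rose in gcn5. The mean sum of the list was 1903 for Col-0, 3133 for gcn5 and 7869 for ada2b, while the lowest of the 7 was 29867 for eaf6. TCH4, a touch-induced xyloglucan endotransglucosylase, is the gene of the list that did not pass in gcn5. Its log2 fold change was 0.72 ± 0.26 in ada2b and -0.58 ± 0.26 in gcn5, and it lay between 4.76 in ada2aspc and 6.20 in spcing1 among the 7. Whether the touch response has a part in the EXLA values was not tested. EXLA1 overlaps the histone gene HTB9 on the opposite strand by 22 bp, and strand use in counting is not given in the sources used here; HTB9 changed by -0.28 to 0.02 in log2 across the 9 mutants.

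**Figure D3:**
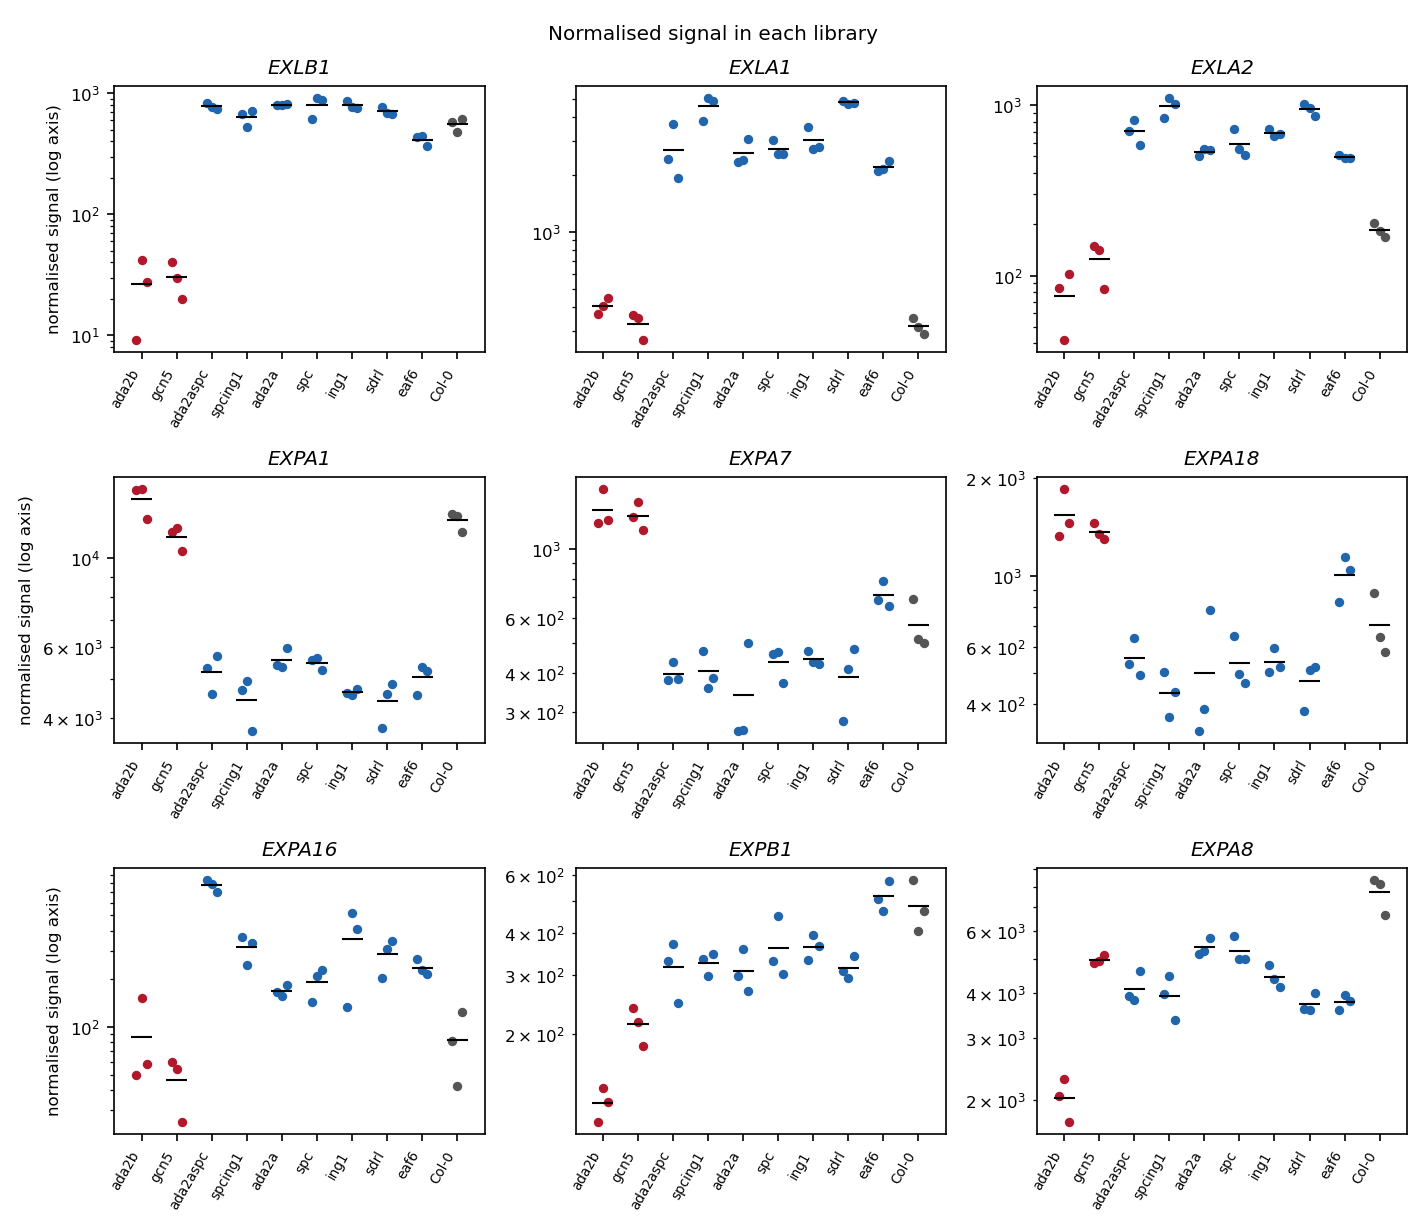
Normalised signal (log axis) of 9 expansin genes in each of the 30 libraries, by genotype; points are libraries and lines are means, with ada2b and gcn5 in red, the other 7 mutants in blue and Col-0 in grey. EXLB1 is low in ada2b and gcn5, EXLA1 is high in the blue group and EXPA1 is low in it.

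EXPA1, the gene with the highest level, fell in the 7 mutants other than ada2b and gcn5. EXPA1 (AT1G69530, TAIR10.1 chromosome 1, 26141726 to 26143538, plus strand) is an alpha-expansin of growing shoot tissue and of guard cells. It was at 14824, 14880 and 12553 in ada2b and 11639, 11901 and 10427 in gcn5, while Col-0 had 12896, 12779 and 11661. It was at 5432, 5361 and 5971 in ada2a, 5573, 5643 and 5269 in spc and, in ing1, 4606, 4561 and 4732. It was at 3783, 4582 and 4854 in sdrl and 4569, 5351 and 5249 in eaf6. In the double mutants it was at 5335, 4596 and 5713 in ada2aspc and 4686, 4930 and 3704 in spcing1. All libraries of the 7 lay below all Col-0 libraries, while ada2b and gcn5 overlapped Col-0. The log2 fold change ran from -1.16 ± 0.10 in ada2a (adjusted p = 9.56e-11) to -1.50 ± 0.10 in sdrl and spcing1 (adjusted p = 2.62e-13 and 2.05e-13). It was 0.18 ± 0.10 in ada2b (adjusted p = 0.137) and -0.14 ± 0.10 in gcn5 (adjusted p = 0.273). With column totals the ada2b value became 0.44 (adjusted p = 0.000428).

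Several other alpha-expansins of expanding tissue fell more broadly. EXPA8 fell in all 9 mutants, to 2026 ± 284 in ada2b (-1.93 ± 0.10) and 4981 ± 140 in gcn5 (-0.63 ± 0.10), while Col-0 had 7724 ± 922. Among the other 7 it ran from -0.51 in ada2a to -1.04 in sdrl. EXPA10, which is expressed in leaf and petiole growth, fell by 0.79 to 1.09 on the log2 scale in the 7 and by 0.50 in ada2b. It passed as lower in gcn5 (-0.26 ± 0.10, adjusted p = 0.0267), a call lost with column totals (adjusted p = 0.591), without gcn5 replicate 3 (0.136), without Col-0 replicate 2 (0.0532) and without Col-0 replicate 3 (0.0976). EXPA5 fell by 1.20 ± 0.11 in ada2b and by 0.31 to 0.59 in the 7. The EXPA5 call was lost in ing1 without ing1 replicate 1 (adjusted p = 0.135) or 2 (0.0615) or Col-0 replicate 1 (0.129) or 3 (0.0646), in ada2a without Col-0 replicate 1 (0.0529), and in eaf6 without eaf6 replicate 3 (0.0573) or Col-0 replicate 1 (0.0505). It was at 855 ± 64.7 in ada2b and 2144 ± 48.8 in gcn5, compared with 1968 ± 193 in Col-0. Its gcn5 value of 0.13 became 0.33 and passed with column totals (adjusted p = 0.0186). EXPA3, EXPA4, EXPA6 and EXPA11 also passed as lower in ada2b, by 0.73, 0.49, 0.61 and 0.65. With column totals EXPA4 in ada2b was -0.23 and no longer passed (adjusted p = 0.0986). In gcn5 none of these 4 passed as lower, and EXPA4 rose (0.42 ± 0.12). EXPA9, EXPA14 and EXPA15 rose in gcn5, by 0.31, 0.62 and 0.84, and did not pass in ada2b. With column totals EXPA15 passed as higher in ada2b, too (0.41, adjusted p = 0.00992, in place of 0.14), and EXPA11 (0.31) and EXPA13 (0.27) passed as higher in gcn5. EXPA13 rose in ing1 (0.29) and ada2aspc (0.42). In eaf6 EXPA11 and EXPA3 fell, by 1.07 and 0.50, and EXPA9, EXPA15 and EXPA6 rose, by 0.62, 0.37 and 0.22. In spcing1 EXPA14, EXPA9, EXPA3, EXPA11 and EXPA6 passed as lower, by 0.53, 0.29, 0.27, 0.21 and 0.20. EXPA11 also fell in ing1 (-0.29) and ada2aspc (-0.28), and EXPA14 in sdrl (-0.43). Several of these smaller calls were lost without 1 library. In spcing1 EXPA3 was lost without spcing1 replicate 3 (adjusted p = 0.191) or Col-0 replicate 1 (0.12) or 2 (0.0585), and EXPA6 without spcing1 replicate 2 (0.0749) or 3 (0.152) or Col-0 replicate 1 (0.145). EXPA9 was lost there without spcing1 replicate 2 (0.0773) or 3 (0.17) or Col-0 replicate 2 (0.155) or 3 (0.112), EXPA11 without spcing1 replicate 1 (0.164) or 3 (0.0915) or Col-0 replicate 1 (0.0917) or 2 (0.117), and EXPA14 without spcing1 replicate 2 (0.0511). In eaf6 EXPA15 was lost without eaf6 replicate 2 (0.0585) or 3 (0.104) or Col-0 replicate 1 (0.102) or 2 (0.0602), and EXPA6 without eaf6 replicate 2 (0.0681) or Col-0 replicate 3 (0.0969). EXPA14 in sdrl was lost without any 1 sdrl or Col-0 library (0.0545 to 0.122). EXPA9 in gcn5 was lost without gcn5 replicate 1 (0.124) or Col-0 replicate 1 (0.145) or 3 (0.0528). EXPA13 in ing1 was lost without ing1 replicate 2 (0.102) or Col-0 replicate 1 (0.0592) or 2 (0.0802). EXPA11 was lost in ing1 without ing1 replicate 2 (0.0561) and in ada2aspc without ada2aspc replicate 2 (0.0693).

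EXPA16 rose in the 7 mutants, with the highest level in the ada2aspc double mutant. EXPA16 (AT3G55500), shown by library because of that level, was at 831, 787 and 704 in ada2aspc, against 81.6, 42.3 and 124 in Col-0. It was at 86.7 ± 56.8 in ada2b and 46.5 ± 18.7 in gcn5, with no call. Without Col-0 replicate 2 the gcn5 value of -0.78 became -1.19 and passed (adjusted p = 0.0291). Its log2 fold change ran from 1.14 ± 0.41 in ada2a to 3.34 ± 0.41 in ada2aspc. The ada2a call (adjusted p = 0.0324) was lost without any 1 of the ada2a libraries (adjusted p = 0.0571 to 0.0855), without Col-0 replicate 1 (0.0552) or replicate 2 (0.225), and with no filter (0.0546). The spc call was lost without Col-0 replicate 2 (adjusted p = 0.106). The coding sequence of EXPA16 is 80.2% identical to EXPA4.

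The root hair expansins, EXPA7 and EXPA18, rose in ada2b and gcn5. Both are known from Arabidopsis root hair initiation and growth, where the bHLH factor RSL4 and its relatives act through a promoter sequence called the root hair element. EXPA7 was at 1339 ± 191 in ada2b and 1277 ± 134 in gcn5, while Col-0 had 568 ± 107 (1.24 ± 0.19, adjusted p = 2.48e-06, and 1.18 ± 0.19, adjusted p = 8.73e-06). EXPA18 was at 1545 ± 273 in ada2b and 1365 ± 76.8 in gcn5, compared with 704 ± 161 in Col-0 (1.14 ± 0.21, adjusted p = 4.48e-05, and 0.98 ± 0.21, adjusted p = 0.000413). In ada2a EXPA7 was at 260, 263 and 498 and EXPA18 at 330, 386 and 785, so that replicate 3 stood apart, and its root hair markers summed to 3951, against 2380 and 2291 in ada2a replicates 1 and 2. EXPA7 passed as lower in ada2a, sdrl, ada2aspc and spcing1, and EXPA18 in ada2a, sdrl and spcing1. Of these only the call of EXPA7 in ada2a (-0.79 ± 0.19, adjusted p = 0.00184) was not lost by leaving out 1 library. Without Col-0 replicate 1, the highest of its group at 691 for EXPA7 and 886 for EXPA18, adjusted p for the others lay between 0.08 and 0.218. EXPA18 passed as higher in eaf6 (0.52 ± 0.21, adjusted p = 0.0397), a call lost without eaf6 replicate 2 (0.148) or 3 (0.0988), or Col-0 replicate 2 (0.11) or 3 (0.175). EXPA17, expressed in roots, was at 181 ± 49.5 in ada2b and 291 ± 71.9 in gcn5, compared with 99.8 ± 18.9 in Col-0 (0.83 ± 0.33 and 1.52 ± 0.33). The ada2b call was lost without ada2b replicate 2 (adjusted p = 0.161) or 3 (0.064) and without Col-0 replicate 1 (0.0638) or 2 (0.133). EXPA17 also passed as higher in eaf6 (0.92 ± 0.33) and lower in spcing1 (-1.13 ± 0.33), calls lost without eaf6 replicate 1 (adjusted p = 0.124), Col-0 replicate 2 (0.0936) and, for spcing1, spcing1 replicate 2 (0.0874).

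The windows of EXPA7 and EXPA18 are shown because both hold the root hair element, in capitals. They are from RefSeq, TAIR10.1, at chr1:4276205-4276504 for EXPA7 and chr1:23331263-23331562 for EXPA18, both on the plus strand.
EXPA7: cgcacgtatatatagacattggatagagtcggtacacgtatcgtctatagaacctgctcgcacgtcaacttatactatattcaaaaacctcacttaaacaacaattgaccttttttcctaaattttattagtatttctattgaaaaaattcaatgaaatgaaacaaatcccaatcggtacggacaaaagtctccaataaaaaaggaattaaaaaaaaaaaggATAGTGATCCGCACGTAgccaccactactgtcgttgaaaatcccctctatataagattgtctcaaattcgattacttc
EXPA18: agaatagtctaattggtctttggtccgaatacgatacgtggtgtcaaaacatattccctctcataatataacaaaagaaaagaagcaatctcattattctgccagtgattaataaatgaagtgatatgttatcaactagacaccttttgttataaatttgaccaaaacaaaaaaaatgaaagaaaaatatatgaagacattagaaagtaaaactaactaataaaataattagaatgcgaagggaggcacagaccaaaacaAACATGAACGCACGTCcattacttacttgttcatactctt
The element lies 78 to 62 bases before the start of EXPA7 and 40 to 25 before that of EXPA18. It was in 251 of 27443 promoter windows on either strand (0.91%), and among the 34 members in these 2. This is a description of the windows, since the pair was shown because both hold the element. The EXPA18 window overlaps AT1G62978, a short annotated coding gene at 0 in the files, and EXPA7 overlaps AT1G12570 on the opposite strand by 23 bp; that partner also rose, by 0.79 in ada2b and 0.81 in gcn5.

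Of 7 root hair markers, 6 rose in ada2b and 5 in gcn5 with 0 falling, where 23.5% and 18.2% of all genes rose. RSL4 rose by 1.55 ± 0.29 in ada2b and 1.44 ± 0.29 in gcn5. The extensin-like gene LRX1 rose by 1.46 ± 0.22 in ada2b. The markers summed to 7778 to 10630 in ada2b and 7106 to 9676 in gcn5, while Col-0 had 3351 to 5343, where replicate 1 was highest, as it was for EXPA7 and EXPA18. Of 12 root markers, 5 rose and 2 fell in ada2b, where 23.5% of all genes rose and 28.1% fell. In gcn5 4 rose and 2 fell, where 18.2% rose and 24.5% fell. The total called was 58.3% and 50% of the list, near the 51.6% and 42.7% of all genes. By direction, the rising share was above that of all genes and the falling share below it. The root markers summed to 5552 to 6801 in ada2b and 5705 to 6374 in gcn5, while Col-0 had 6328 to 8402. The part of the root share in the expansin values was not tested.

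Among the beta-expansins, EXPB1 and EXPB3 fell in ada2b. EXPB1 was at 124 ± 14.6 in ada2b and 214 ± 28.0 in gcn5, compared with 483 ± 87.3 in Col-0 (-1.95 ± 0.16 and -1.16 ± 0.16). EXPB1 also passed as lower in ada2aspc, spcing1, ada2a, spc and sdrl, by 0.42 in spc to 0.64 in ada2a, and its values in ing1 (-0.39) and eaf6 (0.11) did not pass. The ing1 value passed with column totals (adjusted p = 0.0257), with only the groups compared (0.0326) and without Col-0 replicate 2 (0.0297). The spc call was lost without spc replicate 1 (adjusted p = 0.118) or 3 (0.188) or Col-0 replicate 1 (0.213) or 3 (0.0633), and the spcing1 call without Col-0 replicate 1 (0.062). EXPB3 was at 1153, 1417 and 1121 in ada2b and 2413, 2411 and 2256 in gcn5, while Col-0 had 2263, 2099 and 2268. It was at 1931, 1719 and 2035 in ada2aspc and 1911, 1914 and 1721 in spcing1, at 1637, 1653 and 1949 in ada2a, 1778, 1900 and 1868 in spc and, in ing1, 1523, 2201 and 2083. In sdrl it was at 2003, 1920 and 2075 and in eaf6 at 2473, 2508 and 2556. The EXPB3 fold change was -0.85 ± 0.10 in ada2b (adjusted p = 2.35e-08), 0.09 ± 0.10 in gcn5 (adjusted p = 0.475) and 0.19 ± 0.10 in eaf6 (adjusted p = 0.122). In gcn5 it was 0.29 and passed with column totals (adjusted p = 0.0204), and in eaf6 it passed with only the groups compared (0.0217). It passed as lower in ada2a (-0.34), spc (-0.26) and spcing1 (-0.26). The spc call was lost without any 1 spc library (0.057 to 0.116) or Col-0 replicate 1 (0.101) or 3 (0.106), and the spcing1 call without spcing1 replicate 3 (0.143) or Col-0 replicate 1 (0.0913) or 3 (0.0945). EXPB2 was a low gene with a wide spread. It was at 89.1 ± 13.3 in ada2b and 63.4 ± 5.42 in gcn5, compared with 32.1 ± 12.8 in Col-0, and no call was made. It passed as higher in ada2b with a pseudocount of 16 (adjusted p = 0.000789), column totals (0.0417) and only the groups compared (0.0039), and in gcn5 with a pseudocount of 16 (0.0258) and only the groups compared (0.0269). It fell in ada2a to 5.11 ± 4.33 (-2.83 ± 0.77, adjusted p = 0.00547), a call lost without ada2a replicate 1 at 0.166 (adjusted p = 0.0739). Its calls in ada2aspc and spcing1 were lost without ada2aspc replicate 3 (adjusted p = 0.135), without spcing1 replicate 2 (0.136) and without Col-0 replicate 3 (0.0685 and 0.0591).

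The direct difference between ada2b and gcn5 does not involve the Col-0 values, although all 30 libraries set its error. Of 23 members 14 were lower in ada2b and 1 higher, a share of 65.2%, where 42.1% of all genes differed, 22.6% lower and 19.6% higher. The 14 hold 11 of 16 alpha-expansins, EXPB1, EXPB3 and EXLA2. The largest differences were EXPA5 (855 ± 64.7 in ada2b, 2144 ± 48.8 in gcn5, -1.33 ± 0.11) and EXPA8 (2026 ± 284 against 4981 ± 140, -1.31 ± 0.10). EXPB3 (-0.95 ± 0.10) and EXPA4 (-0.91 ± 0.12) followed. The EXLA2 call was lost without ada2b replicate 2 (adjusted p = 0.103) and with only the groups compared (0.118). EXPA9 and EXPA14 were lost without ada2b replicate 3 (0.0768 and 0.082). EXPA13 was lost without ada2b replicate 3 or gcn5 replicate 1 or 2 (0.0691 to 0.111), and EXPA10 without ada2b replicate 1 or 2 or gcn5 replicate 1 or 2 (0.136 to 0.2). EXPA1 was the exception, at 0.31 ± 0.10 (adjusted p = 0.011), a call lost without gcn5 replicate 3 (adjusted p = 0.0634) or ada2b replicate 1 (0.0526). EXLB1 (-0.37 ± 0.29), EXPA7 (0.06 ± 0.19) and EXPA18 (0.17 ± 0.21) gave no call. With column totals the split was 12 lower and 2 higher, and that of all tested genes was 4229 lower and 5527 higher.

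**Figure D4:**
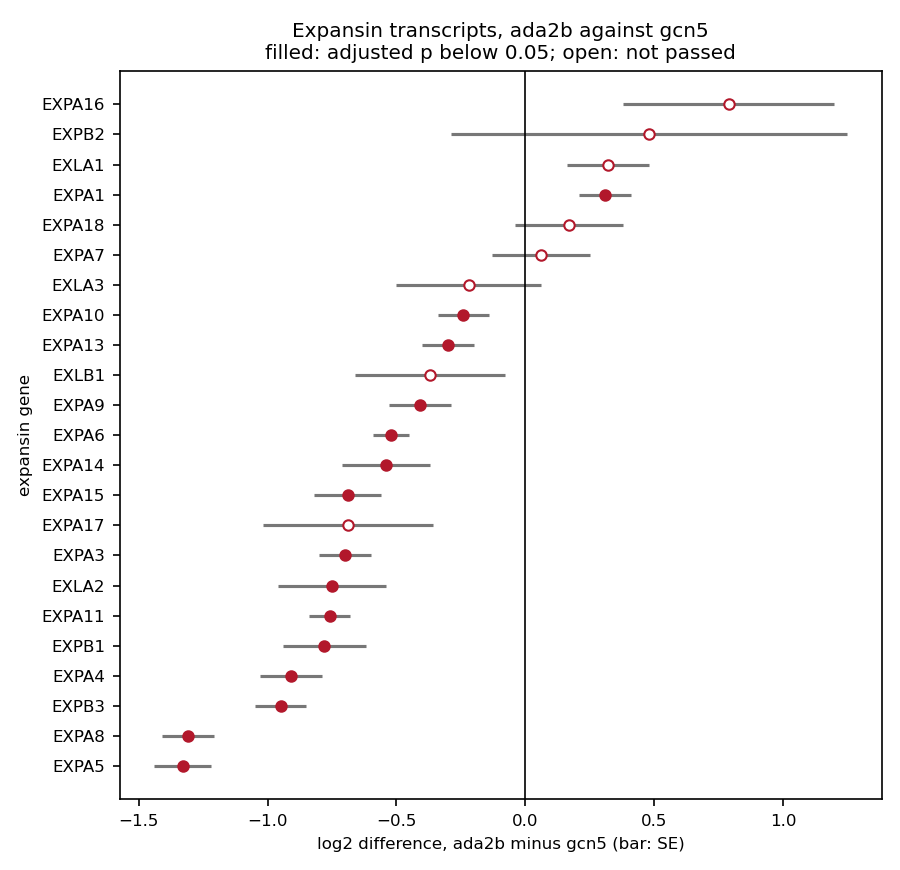
Log2 difference of ada2b minus gcn5 for the 23 tested expansin genes, ordered by size; bars are SE, filled points passed an adjusted p below 0.05 and open points did not. The points run from 0.79 for EXPA16 to -1.33 for EXPA5, and 14 filled points lie left of 0.

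Set against the mean of the 5 plant-specific-complex single mutants, ada2b had 6 members higher and 14 lower (87.0% of 23, against 72.3% of all genes, 34.8% higher and 37.5% lower). In gcn5 14 were higher and 5 lower (82.6% against 60.4%, with 29.0% higher and 31.5% lower). EXLB1 was lower by 4.88 ± 0.22 in ada2b and by 4.52 ± 0.22 in gcn5, and EXLA1 by 2.85 ± 0.12 and 3.18 ± 0.12. EXPA1 was higher, at 1.49 ± 0.08 in ada2b and 1.18 ± 0.08 in gcn5, as was EXPB2 (3.27 ± 0.59 and 2.80 ± 0.59). EXPB2 is a low gene, at 32.1 ± 12.8 in Col-0, and its ada2b and gcn5 values were not called against Col-0 in the main fit. The root hair pair was higher as well, with EXPA7 at 1.59 ± 0.15 in ada2b and 1.53 ± 0.15 in gcn5. With column totals the ada2b split became 8 higher and 9 lower, and that of all tested genes 11554 higher and 5755 lower.

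Within those 5, 18 of 23 members differed (78.3%, against 46.5% of all genes by the same F-test). The mutant eaf6 was set against the mean of the other 4, a comparison chosen after values were seen: 11 members were higher and 7 lower (78.3% against 48.1%, with 23.3% higher and 24.8% lower). EXPA11 was at 1780 ± 31.3 in eaf6, against 3077 to 3512 in ada2a, spc, ing1 and sdrl, a difference of -0.89 ± 0.07. EXPA17 (1.55 ± 0.26), EXPA18 and EXPA7 (0.86 ± 0.15) were higher in eaf6, and so were 6 of 7 root hair markers, among them LRX1 (1.09); their part in the result was not tested. EXLB1 was lower, at -0.90 ± 0.23. With column totals 11 were higher and 4 lower, while all tested genes split into 7238 higher and 3523 lower. With sdrl against the mean of the other 4, also chosen then, 6 members of 23 differed (26.1%, against 11.8% of all genes), 3 higher and 3 lower, beside 5.86% and 5.99%. EXLA1 was higher by 0.88 ± 0.13 (adjusted p = 1.9e-05) and EXLA2 by 0.73 ± 0.17 (adjusted p = 0.00466). The count was 2 without sdrl replicate 1 and 3 without sdrl replicate 2.

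Between the double mutants and their single mutants, 4.35% to 17.4% of the members differed, where 2.82% to 14.7% of all genes did. Against ada2a, 4 members of 23 differed in ada2aspc (17.4%, against 14.7% of all genes, 6.77% higher and 7.93% lower), with EXPA16 at 2.20 ± 0.41, EXPA4 at 0.53 ± 0.12, EXPA15 at 0.45 ± 0.13 and EXPA8 at -0.39 ± 0.10. Against spc, 2 differed (8.70% against 11.9%, 4.89% higher and 7.02% lower), EXPA16 at 2.03 ± 0.41 and EXPA8 at -0.35 ± 0.10. Against ada2a, EXPA15 was lost without ada2a replicate 1 or 2 or ada2aspc replicate 2 or 3 (adjusted p = 0.0726 to 0.0891) and EXPA8 without ada2aspc replicate 2 (0.0513). Against spc, EXPA8 was lost without spc replicate 1 (0.12) or ada2aspc replicate 1 (0.084) or 2 (0.0958). In spcing1, 4 differed from spc (17.4% against 7.06%, 3.61% higher and 3.45% lower), with EXLA1 at 0.75 ± 0.16 and EXLA2 at 0.73 ± 0.21 higher and EXPA8 and EXPA1 lower. EXLA1 apart, these were lost without 1 library: EXLA2 without spc replicate 2 or 3 or spcing1 replicate 2 or 3 (0.0925 to 0.138), EXPA8 without spc replicate 1 (0.0609) or spcing1 replicate 3 (0.0853), and EXPA1 without any 1 spc library or spcing1 replicate 3 (0.0673 to 0.317). Against ing1, 1 differed (4.35% against 2.82%, 1.78% higher and 1.04% lower), EXLA1 (0.60 ± 0.16, adjusted p = 0.0348), a call lost without ing1 replicate 2 (0.166) or 3 (0.151) or spcing1 replicate 2 (0.187) or 3 (0.122). As a test of additivity, the effect of the double mutant minus the sum of the single effects was called for 7 members in ada2aspc and 5 in spcing1 (30.4% and 21.7%, against 18.6% of all genes in each). Of all genes 7.76% were higher and 10.8% lower in ada2aspc, and 7.95% and 10.7% in spcing1. EXLA1 was the largest, at -3.09 ± 0.22 in ada2aspc and -2.49 ± 0.22 in spcing1. These contrasts share the Col-0 and spc libraries. With column totals the count in ada2aspc was 11, of which 8 were higher and 3 lower. All tested genes then split into 2751 higher and 1976 lower.

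Genes around the expansins were counted from lists chosen for wall loosening. The wall synthesis list (13 genes of cellulose and xyloglucan) had 9 members rising and 0 falling in ada2aspc, 9 and 1 in spcing1, 7 and 1 in ada2a, 6 and 2 in spc, 9 and 1 in ing1 and sdrl and 8 and 2 in eaf6. In these 7 mutants 61.5% to 76.9% of the list was called, against 29.7% to 51.0% of all genes. Of all genes, 15.1% to 25.2% rose in them and 14.5% to 25.9% fell. The list had 1 rising and 5 falling in ada2b (46.2%, below the 51.6% of all genes) and 2 and 7 in gcn5 (69.2% against 42.7%). The xyloglucan xylosyltransferase gene XXT1 rose by 2.29 ± 0.15 in sdrl and fell by 0.85 ± 0.15 in gcn5, and the alpha-xylosidase gene XYL1 fell by 1.03 ± 0.08 in ada2b. The SAUR19 group fell in 6 of 6 genes in ada2b and eaf6, in 5 of 6 in gcn5 and in 2 or 3 of 6 in the others. Of all genes, 28.1% fell in ada2b, 25.9% in eaf6, 24.5% in gcn5 and 14.5% to 23.9% in the others. SAUR22 was at -2.63 ± 0.23 in ada2b, SAUR23 at -1.34 ± 0.17 in gcn5 and SAUR20 at -1.09 ± 0.20 in sdrl. The 10 tested proton pump genes split 3 up and 2 down in ada2b, 2 and 2 in gcn5 and 1 and 2 in sdrl, which is 50%, 40% and 30% of the list, against 51.6%, 42.7% and 35.8% of all genes. They were led by AHA4 at 1.15 ± 0.23 in ada2b, AHA7 at 0.63 ± 0.16 in gcn5 and AHA4 at -0.85 ± 0.23 in sdrl. AHA6 was at 0. Of 14 tested regulators of expansin genes, 2 rose and 6 fell in ada2b, 3 and 5 in gcn5 and 5 and 1 in sdrl. That is 57.1%, 57.1% and 42.9% of the list, near the shares of all genes for ada2b and sdrl. LBD18, a factor of lateral root formation, led in ada2b at -1.66 ± 0.53, RSL4 in gcn5 and the root hair factor RHD6 in sdrl at -1.18 ± 0.27. Among the marker lists, the largest changes in ada2b were those of LRX1 (1.46), CASP5 (2.38), LHCB2.1 (-4.49), ZAT10 (3.56) and CCA1 (-5.97). In gcn5 they were PRP1 (1.35), CASP5 (1.85), LHCB2.1 (-2.63), ZAT10 (1.86) and CCA1 (-4.05). In sdrl they were IRE (-0.94), ESB1 (-1.54), LHCB2.1 (-0.86), TCH4 (6.08) and PRR9 (-3.25).

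**Figure D5:**
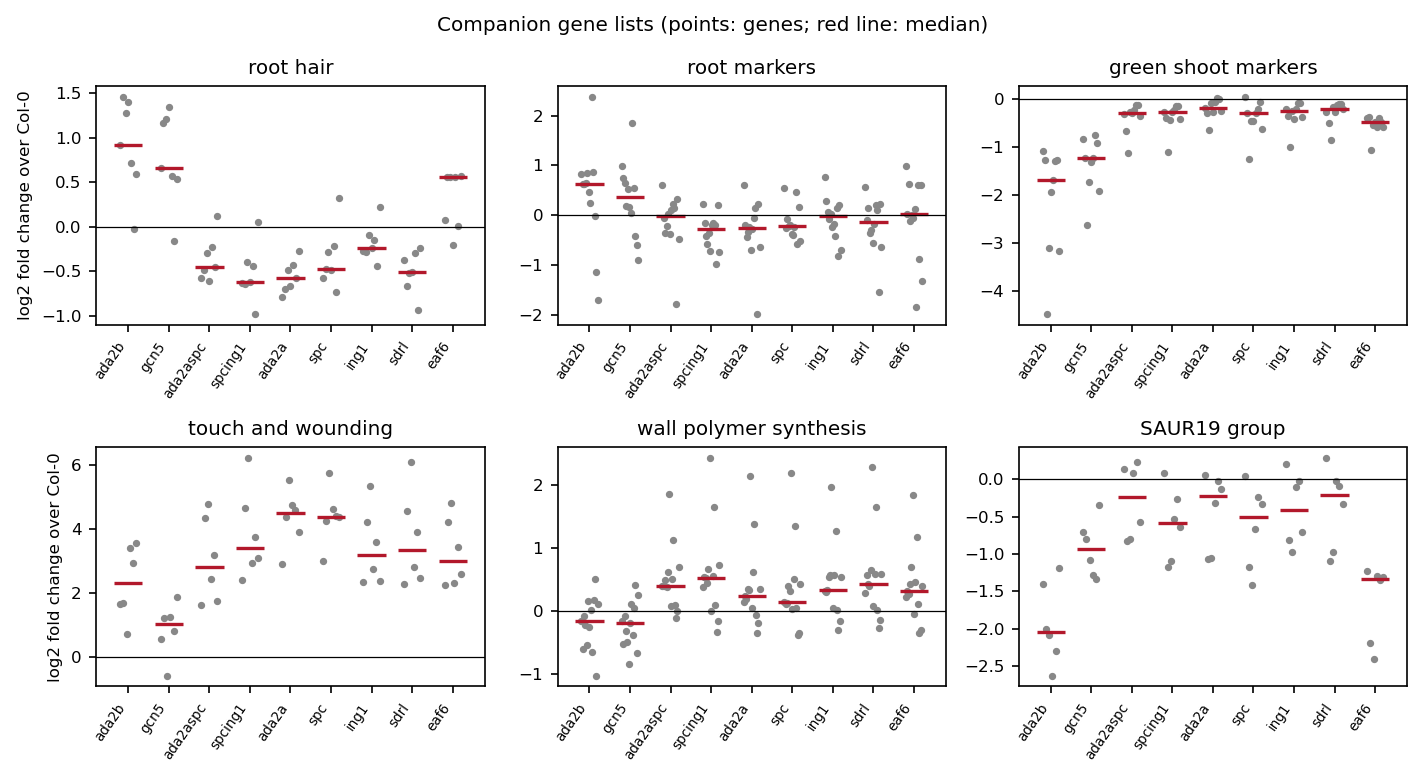
Log2 fold change over Col-0 of each gene of 6 lists (points) with the list median (red line), in each of the 9 mutants. Root hair markers have medians of 0.92 in ada2b and 0.66 in gcn5 and negative medians in 6 of the other mutants.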

How the data were processed

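RNA of 30 seedling libraries was sequenced as paired reads, per the labels' protocols. The authors deposited 1 table of normalised signal per gene, whose values are not whole numbers. The submitters' processing notes name bcl2fastq, HISAT2, edgeR and TAIR10, and give no settings; the normalisation step and strand use are not given in the sources used here. Since the values are not counts, depth is unknown, and no intervals for counting error are given. They were tested as log2(value + 1) with limma 3.58.1 in R 4.3.3, with all 30 libraries in 1 fit, genotype as the term and a trended prior. Genes needed a value of 10 in at least 3 libraries, which left 21868. P-values were adjusted by Benjamini-Hochberg over all of these, with a threshold of 0.05. A fold change on this scale understates the change of low genes. Promoter windows are the 300 bases before the annotated start in RefSeq TAIR10.1. Values in every library are given for the genes with the largest change in a mutant and the highest level per kb in each family. Those with the largest change are EXLB1, EXLA1 and, in ada2aspc, EXPA16. Further genes given by library were chosen after their values were seen. From the companion lists, the member with the largest change that passed was named in gcn5, ada2b and sdrl. The members and lists were chosen with earlier results of these data known. Alternatives were a pseudocount of 16, no filter, size factors, column totals, a fit of only the groups compared, a replicate block and leaving out each library.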

Additional observations from a re-analysis of the deposited data

Results flagged for a closer look

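The effect of a double mutant differed from the sum of its single mutants' effects for 12 values, each by the limma test of that difference (adjusted p below 0.05). In ada2aspc the difference, as double minus the sum on the log2 scale, was 1.07 for EXPA1, 0.52 for EXPA4, 0.50 for EXPA5, 0.96 for EXPA10, -3.09 for EXLA1, -1.29 for EXLA2 and -1.52 for EXLA3. In spcing1 it was 1.11 for EXPA1, 0.87 for EXPA10, -2.49 for EXLA1, -1.16 for EXLA2 and -1.61 for EXLA3. The sign was opposite to that of the single mutants' own differences from Col-0 for EXPA1, EXPA5, EXPA10, EXLA1, EXLA2 and EXLA3.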

How the results depend on the processing

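With column totals, EXPA11 in ada2b against the mean of the 5 plant-specific-complex single mutants was 0.026 in place of -0.29, and EXPA6 in gcn5 against that mean was 0.16 in place of -0.09; the cause was not tested. The count of members in spcing1 against spc was 2 with no filter in place of 4. That in spcing1 against ing1 was 0 with no filter and 2 with only the groups compared, in place of 1. The non-additive count in ada2aspc was 11 with column totals in place of 7. Leaving out 1 library gave 11 to 18 members in spcing1 against Col-0 (19 with all), 2 to 6 in ada2aspc against ada2a, 1 to 3 in ada2aspc against spc, 1 to 4 in spcing1 against spc, 0 to 3 in spcing1 against ing1 and 2 to 7 in sdrl against the other 4. Deviations from the genotype mean correlated at -0.111 to 0.087 between same-numbered libraries of different genotypes. The labels do not say whether replicate numbers mark pairs, and these values cannot settle it. With the replicate block, 3 single-gene calls were gained and 2 lost, and the ada2b against gcn5 count was 14. The signal has no known depth, so low members such as EXPB2 carry the widest errors.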

Other observations

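Other short promoter motifs were counted on both strands of the same 300 bases, as a description. The W-box, TTGACC or TTGACT, was in the windows of 12 of 34 members, against 32.27% of 27443 promoters. The CGCGTT motif was in those of EXPA6, EXPA12, EXPB4, EXLA1 and EXLA3, against 3.08% of promoters. TGTCTC was in those of EXPA5, EXPA6, EXPA7 and EXPA10, against 12.97%. CACGTG was in those of EXPA2 and EXPB2, against 7.09%.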
